A study of Mus musculus with 2 samples.

Results

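The genes described here are 37 genes of fatty acid oxidation and of the peroxisome, followed by symbol through 2 single-cell RNA libraries of mouse kidney. The 37 symbols were matched exactly in the gene list of both count matrices, which hold 31053 genes, and all 37 were found in both. One library was made from pooled kidneys of old and one from pooled kidneys of young MRL-*lpr* mice, a strain that carries the *lpr* mutation of *Fas* and develops a lupus-like disease with nephritis as it ages. Both ages share this genotype, and no treatment or other strain entered. Before the libraries were made, leukocytes were enriched on a density gradient, innate lymphoid cells with a magnetic kit, and live cells were sorted, so that the shares of cell types do not give the makeup of the kidney. With 1 library per age there is no replicate, and no value below carries a test between ages. All 95% intervals cover counting error only.

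Proximal tubule (PT) cells reabsorb most of the filtered solutes and draw most of their energy from fatty acids. A fatty acid is first activated to its coenzyme A ester, enters the mitochondrion as a carnitine ester, and is then shortened by cycles of dehydrogenation, hydration, renewed dehydrogenation and thiolysis. Very long, branched and dicarboxylic acids are shortened in the peroxisome, where catalase removes the hydrogen peroxide that is made, and cytochrome P450 enzymes of the Cyp4 family hydroxylate the far end of the chain. Many of these genes respond to PPARα, the nuclear receptor encoded by *Ppara*, and to its coactivator PGC-1α, encoded by *Ppargc1a*.

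A barcode was kept if it had 200 or more genes and no more than 20% of its UMIs (unique molecular identifiers, 1 per captured RNA molecule) from mitochondrial genes. The young library then held 11429 cells with 145647185 UMIs and the old library 10232 cells with 119218130 UMIs. The median depth was 7881 UMIs per cell in young and 6933 in old. The libraries had 41 barcodes in common, 26 of them among the kept ones. Cell classes were set by marker genes that are not members. Early PT-like cells (2824 young, 1656 old) had mostly *Slc5a2*, *Slc5a12* and other genes of the early segments, late PT-like cells (710 and 266) mostly *Slc7a13* and other genes of the last segment, and middle cells (2092 and 1131) lay between the cuts. Of the 5626 young PT cells, 729 lay within 0.5 log2 units of the early cut and 610 of the late cut, so that the segments are ranges along 1 axis. In all, 23.9% of young and 19.3% of old kept barcodes fell in no class.

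Genes that the gates did not use were read to check the labels. *Slc7a7*, an early transporter gene, had 287 CPM (UMIs of the gene scaled to a total of 1000000 UMIs in the class) in early and 21.5 CPM in late cells of the young library, and 277 and 40.8 CPM in the old one. *Slc22a6*, however, which was also read for the early segment, was lower in early than in late cells (472 and 611 CPM in young, 498 and 1023 CPM in old). *Aadat*, a late gene, had 87.7 CPM in early and 1274 CPM in late young cells, but 434 CPM in late old cells, and *Bcat1*, another late gene, had 12.1 CPM and 0 CPM. *Serpina1f* or *Cyp7b1*, both of the late gate, had a UMI in 149 of 710 late cells of the young and in 4 of 266 of the old library. Late cells with a UMI of either gene were thus nearly absent from the old library. Whether this was a difference in cells or in expression was not tested.

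Both libraries held cells with UMIs of Y-linked genes and cells with UMIs of *Xist*, the RNA of the inactive X chromosome, although the study's methods name female mice. Cells with Y-linked and no *Xist* UMIs, called Y cells here, made up 50.8% of kept young and 40.6% of kept old barcodes. Cells with *Xist* and no Y-linked UMIs, called Xist cells, made up 14.6% and 29.1%. Of 3340 young PT cells of the Y kind 15.1% were late, and of 701 of the Xist kind 1.14%. In old these shares were 11.2% of 1609 and 0.419% of 477. *Slc7a13* and *Slc22a30*, both of the late gate, were lower in Xist than in Y cells within the early class as well (7.92 and 28.2 CPM, 29.4 and 176 CPM in young). *Slc6a18*, also of the late gate, ran the other way, with 94.9 CPM in Xist and 22.5 CPM in Y cells of the young library and 96.7 and 21.7 CPM in the old one, and so did *Slc22a13*, a late gene read as a check (9.28 and 0.981 CPM in young). Position along the tubule and the kind of cell cannot be told apart.

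The members together took 1.08% of all UMIs in early, 1.37% in middle and 1.62% in late cells of the young library. In the old library they took 1.13%, 1.40% and 1.504%. The share was 0.501% in 28 young and 0.385% in 49 old loop of Henle-like cells. T-like cells had 0.141% and 0.112% and macrophage-like cells 0.142% and 0.118%. The order of PT, loop and leukocytes was the same in both libraries, and within the PT the early class had the lowest share.

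**Figure D1:**
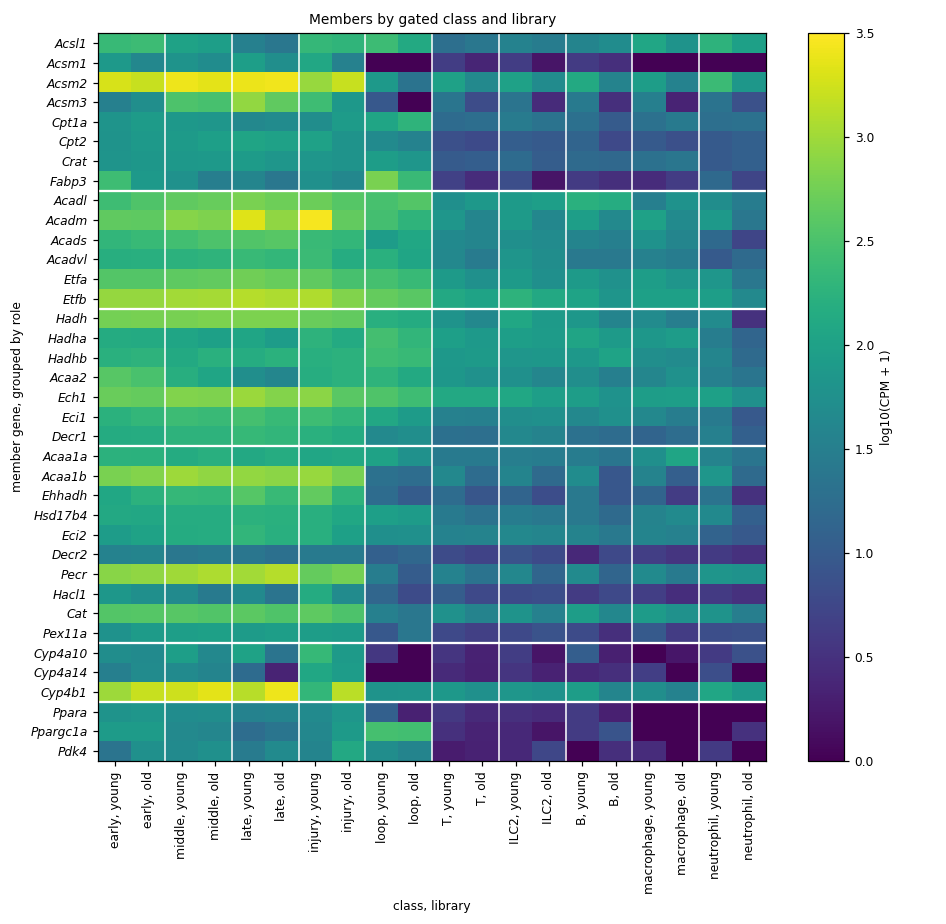
Level of each of the 37 members (rows, grouped by role) in gated classes of both libraries (columns), as the colour of log10(CPM + 1). PT columns are brighter than leukocyte columns for most members, with a clear step for *Acsm2*, *Pecr*, *Acaa1b* and *Cyp4b1* and a smaller one for *Hadha* and *Hadhb*.

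The promoters of the members differed in their content of CG dinucleotides, which is set beside the leukocyte levels further on. RefSeq promoter windows on GRCm38.p6, each from 250 bases before to 50 bases after a start site, were matched by symbol for 31 of the 37 members. The 5 stretches below are the 250 bases before the start of members that lymphocytes held well above the background of tubule RNA (*Hadhb*, *Acadl*), of members at that background (*Acaa1b*, *Acsm1*) and of an exception (*Ppara*). CG dinucleotides, the sites of DNA methylation in mammals, are in capitals. *Hadhb*, the β subunit of the mitochondrial trifunctional protein, lies on the plus strand at chr5:30155003-30155252, and its start is 272 bases from that of *Hadha*, the α subunit, which is read the other way. *Acadl* lies at chr1:66863310-66863559 on the minus strand, *Ppara* at chr15:85735526-85735775 on the plus strand, *Acaa1b* at chr9:119157094-119157343 on the minus strand and *Acsm1* at chr7:119617562-119617811 on the plus strand.
Hadhb: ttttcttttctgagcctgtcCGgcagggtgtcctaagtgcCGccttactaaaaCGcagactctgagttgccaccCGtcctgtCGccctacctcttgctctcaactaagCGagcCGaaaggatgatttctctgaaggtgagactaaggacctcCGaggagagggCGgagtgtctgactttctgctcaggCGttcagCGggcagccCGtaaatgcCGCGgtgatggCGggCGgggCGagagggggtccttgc
Acadl: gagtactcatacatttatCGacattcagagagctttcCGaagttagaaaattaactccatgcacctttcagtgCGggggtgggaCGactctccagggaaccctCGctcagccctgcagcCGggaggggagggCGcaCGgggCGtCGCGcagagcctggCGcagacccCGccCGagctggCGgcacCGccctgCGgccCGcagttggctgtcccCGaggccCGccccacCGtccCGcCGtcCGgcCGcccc
Ppara: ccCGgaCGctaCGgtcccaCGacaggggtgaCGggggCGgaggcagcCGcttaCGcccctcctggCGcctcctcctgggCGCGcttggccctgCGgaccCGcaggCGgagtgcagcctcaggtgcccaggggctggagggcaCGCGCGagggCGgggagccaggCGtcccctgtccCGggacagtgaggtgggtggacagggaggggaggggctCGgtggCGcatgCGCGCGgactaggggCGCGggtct
Acaa1b: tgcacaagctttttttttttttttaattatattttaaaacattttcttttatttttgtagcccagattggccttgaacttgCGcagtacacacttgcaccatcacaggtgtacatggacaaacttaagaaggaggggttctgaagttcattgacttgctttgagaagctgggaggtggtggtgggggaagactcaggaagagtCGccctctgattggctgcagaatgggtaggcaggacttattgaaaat
Acsm1: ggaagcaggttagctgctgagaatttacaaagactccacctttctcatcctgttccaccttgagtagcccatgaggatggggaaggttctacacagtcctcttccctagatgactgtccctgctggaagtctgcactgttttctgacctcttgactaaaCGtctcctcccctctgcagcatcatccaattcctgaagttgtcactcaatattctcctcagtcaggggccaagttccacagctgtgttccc
These stretches hold 17, 25, 27, 2 and 1 CG dinucleotides in that order.

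Of the 37 members, 4 were higher and 2 lower in old than in young early PT cells by more than 1.5-fold, the size used throughout for genes with at least 100 UMIs over both sides. Of all 11272 genes at that filter 5.3% were higher and 4.25% lower by as much, so that the count of members was near the background in both directions. The median log2 ratio was 0.08 over the members and 0.01 over all genes. The other 31 members lay between -0.36 and 0.53. None of the dehydrogenases, of the enzymes from hydratase to thiolase or of the peroxisomal enzymes passed.

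*Fabp3*, a cytosolic fatty acid carrier known from muscle, had 261 CPM (256 to 265) in young and 75.4 CPM (72.3 to 78.7) in old early cells, a log2 ratio of -1.79 (-1.86 to -1.72). It was lower in old among Y cells (287 and 91.8 CPM in young and old) and among Xist cells (154 and 45.9 CPM). It was lower in old also in middle cells (58.7 and 30.2 CPM) and in late cells (38.6 and 23.6 CPM). *Fabp3* was thus lower in old in each of these 5 sets of PT cells. It shared 27.9% of the 50-base words at its 3′ end with other genes, mostly its pseudogene *Fabp3-ps1*, so its counts are less certain.

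*Pdk4*, a kinase that holds back pyruvate dehydrogenase when fatty acids are burned, had 21.2 CPM (19.9 to 22.6) in young and 56.3 CPM (53.6 to 59.1) in old early cells, a log2 ratio of 1.41 (1.29 to 1.52). Among Y cells the levels were 12.2 and 33.9 CPM and among Xist cells 64.2 and 157 CPM. The higher old level of *Pdk4* was present in both kinds of cells, with log2 ratios of 1.48 and 1.29. In middle cells the levels were 45.6 and 56.3 CPM, a log2 ratio of 0.30, short of 1.5-fold. With each cell thinned to 1000 UMIs, which left out 11 young and 4 old early cells, 2.13% of young and 5.02% of old early cells had a *Pdk4* UMI, against 16.7% and 26.4% unthinned. In T-like cells the thinned shares were 0.217% and 0.0794%, at median depths of 4650 and 4771 UMIs against 15346 and 14946 in early cells.

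The medium-chain acyl-CoA synthetase genes, which lie close together on chromosome 7, did not share a direction. *Acsm1* had 74.7 CPM in young and 41.3 in old early cells, a log2 ratio of -0.86 (-0.95 to -0.76), with -0.81 among Y and -1.12 among Xist cells. *Acsm2* had 1946 and 1594 CPM, within 1.5-fold. *Acsm3* had 32.9 and 52.2 CPM, a log2 ratio of 0.67 (0.56 to 0.77), which joins opposite values. Among Y cells it was 1.08 (0.96 to 1.20) and among Xist cells -1.43 (-2.0 to -0.89), the latter from 135 young and 36 old UMIs.

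The Cyp4 members lie close together on chromosome 4. *Cyp4b1*, which oxidises fatty acids and foreign compounds, had 985 CPM in young and 1589 in old early cells, a log2 ratio of 0.69 (0.67 to 0.71), and was higher in old among Y cells (0.78) and Xist cells (1.77). *Cyp4a14*, an ω-hydroxylase, had 31.6 and 48.0 CPM, a log2 ratio of 0.60 (0.50 to 0.71), but -0.97 (-1.81 to -0.21) among Y and 0.27 among Xist cells. Its relative *Cyp4a10* had 50.6 and 46.7 CPM, with -1.04 among Y and -0.31 among Xist cells. The early classes held 52.4% Y and 18.0% Xist cells in young and 42.3% and 23.0% in old. Over all members, 7 passed 1.5-fold in either direction among Y cells, where 10.2% of all genes did, and 7 among Xist cells, where 10.3% did. *Hacl1* was lower among Y cells (38.1 and 21.4 CPM) and among Xist cells (146 and 95.2 CPM), and *Ehhadh* higher among Xist cells (134 and 224 CPM). *Fabp3*, *Acsm1*, *Pdk4* and *Cyp4b1* were the members past 1.5-fold in the same direction in all early cells, in Y cells and in Xist cells.

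Apart from *Pdk4*, the members counted as setting the rate of the pathway or its expression differed by less than 1.5-fold in early cells. *Cpt1a*, which makes the carnitine ester at the outer mitochondrial membrane, had 64.0 CPM in young and 82.0 in old, a log2 ratio of 0.36 (0.28 to 0.44). *Cpt2*, its partner at the inner membrane, had 61.4 and 75.8 CPM (0.30). *Pex11a*, a gene of peroxisome division, had 59.6 and 83.0 CPM (0.48). The receptor gene *Ppara* had 61.5 and 68.1 CPM (0.15), *Ppargc1a* 82.3 and 83.5 CPM (0.02) and the catalase gene *Cat* 364 and 377 CPM (0.05).

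A further group of members stayed within 1.5-fold between old and young in early, middle and late cells alike. In the mitochondrion these were *Acadvl*, *Acadl* and *Acads*, the dehydrogenases for very long, long and short chains, with 155 and 162 CPM, 259 and 347 CPM and 202 and 224 CPM in young and old early cells. *Etfa* and *Etfb*, which pass the electrons on, had 366 and 371 CPM and 872 and 885 CPM. *Hadha* and *Hadhb* had 141 and 135 CPM and 165 and 183 CPM. Old and young levels within 1.5-fold were thus found for most of the members that carry out the mitochondrial cycle.

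Among the rest of that group *Hadh*, a hydroxyacyl-CoA dehydrogenase, had 579 and 605 CPM, the thiolase gene *Acaa2* 391 and 313 CPM, and *Ech1*, *Eci1* and *Decr1*, which handle unsaturated chains, 498 and 476 CPM, 174 and 207 CPM and 139 and 145 CPM. In the peroxisome *Hsd17b4*, a bifunctional enzyme, had 127 and 124 CPM, the thiolase genes *Acaa1a* and *Acaa1b* 178 and 169 CPM and 629 and 704 CPM, and *Eci2*, *Decr2* and *Pecr* 84.9 and 102 CPM, 35.0 and 37.1 CPM and 748 and 832 CPM. *Acsl1*, the long-chain synthetase gene, had 226 and 249.97 CPM and *Crat*, a carnitine acetyltransferase gene, 63.5 and 69.2 CPM.

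In middle cells 3 members were lower and none higher in old, against 7.58% of all genes lower. They were *Cyp4a10* (90.7 and 42.3 CPM in young and old), *Fabp3* and *Hacl1* (46.7 and 26.4 CPM), which cleaves 2-hydroxy acids in the peroxisome. Over the members the median log2 ratio was -0.01 and over all genes -0.04. The next largest were those of *Acaa2* (-0.48, from 156 and 112 CPM) and *Cyp4b1* (0.42, from 1719 and 2306 CPM), both within 1.5-fold.

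In late cells 2 members were higher and 8 lower in old, against 6.08% and 5.82% of all genes. Members had a median log2 ratio of -0.15 and all genes one of 0.03. *Acadm*, the medium-chain dehydrogenase gene, had 2129.5 CPM (2109 to 2151) in young and 829.9 CPM (807 to 854) in old late cells, a log2 ratio of -1.36. *Ehhadh*, a bifunctional enzyme of peroxisomal oxidation, had 382 and 224 CPM (-0.77), *Acsm3* 858 and 438 CPM (-0.97) and *Hacl1* 45.3 and 21.5 CPM (-1.07). *Acadm* and *Ehhadh* were not lower in old by more than 1.5-fold in early cells, a difference that was not tested, while *Hacl1* was so in early Y and early Xist cells and *Acsm3* in early Xist cells.

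The late values were also taken without cells marked by *Serpina1f* or *Cyp7b1*, which the old library nearly lacked. Without cells that had a *Serpina1f* or *Cyp7b1* UMI, 561 young and 262 old late cells were left, and *Acadm* had 1218 CPM in young and 825 in old, a log2 ratio of -0.56. *Ehhadh* then had a log2 ratio of -0.31, *Hacl1* of -0.48, *Acsm1* of -0.53 and *Pdk4* of 0.52, none past 1.5-fold. *Acsm3* stayed lower in old at 680.0 and 438 CPM (-0.64), as did *Fabp3* (-0.89). *Acaa2* (-0.86) and *Acsl1* (-0.67) came past 1.5-fold in this smaller set, so that 1 member was higher and 6 were lower, where 7.92% of all genes passed in either direction. Of 2 late genes read as checks in this set, *Aadat* had 389 CPM in young and 426 in old (0.13). The other, *Slc22a7*, still had 89.1 CPM in young and 31.8 in old (-1.49), so the late classes were not fully alike.

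The Cyp4 members kept their direction there. *Cyp4a14* had 290 young and 7 old UMIs in late cells, 15.7 CPM (13.9 to 17.6) and 1.21 CPM (0.485 to 2.49), a log2 ratio of -3.70, and -3.19 in the smaller set. *Cyp4a10* had 102 and 21.4 CPM, with log2 ratios of -2.25 and -2.04. *Cyp4b1* had 1319 and 2587 CPM, with 0.97 and 0.61. In late cells the neighbours *Cyp4a10* and *Cyp4a14* were thus lower and *Cyp4b1* higher in old.

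*Pdk4* had 27.6 CPM in young and 46.9 in old late cells (0.76), and *Acsm1* 89.9 and 52.7 CPM (-0.77). The other rate-setting members stayed within 1.5-fold, with *Cpt1a* at 41.6 and 47.2 CPM, *Cpt2* at 108 and 99.8 CPM and *Ppara* at 35.0 and 36.9 CPM. *Ppargc1a* had 16.9 and 22.2 CPM, *Cat* 411 and 343 CPM and *Pex11a* 81.1 and 90.1 CPM. The 27 members within 1.5-fold lay between -0.46 and 0.40.

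**Figure D2:**
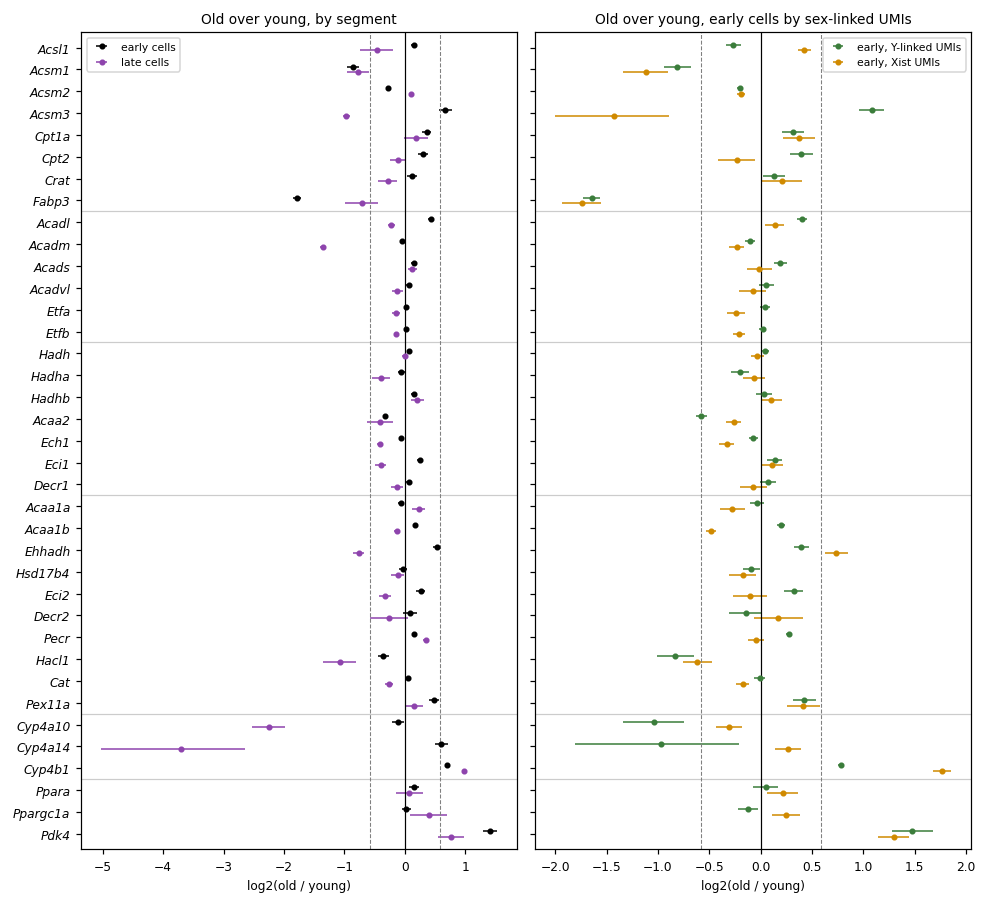
Log2 ratio of old over young for each member with exact 95% binomial intervals (counting error only), in early and late cells (left) and in early cells with Y-linked or with *Xist* UMIs (right). Dashed lines mark 1.5-fold. *Fabp3* is low and *Pdk4* high in all 4 series, while *Acsm3* lies at 1.08 in Y and at -1.43 in Xist cells.

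Genes of the same pathways outside the 37 were counted in lists of their own. In early cells 5 of 13 tested genes of uptake and storage were higher and 1 lower in old, with a list median of 0.47. *Cd36*, a fatty acid receptor gene, had 14.5 CPM in young and 32.1 in old (1.15), and *Plin2*, which coats lipid droplets, 111 and 178 CPM (0.68). *Cd36* was higher in old among early Y cells but lower in old among early Xist cells, at levels given further on. Of 23 genes of mitochondrial oxidation and ketone bodies, 2 were higher and 1 lower. Among the higher ones was *Bdh1*, which interconverts ketone bodies (3.70 and 20.03 CPM), while *Etfdh*, which passes electrons to ubiquinone, had 72.7 and 72.6 CPM and the carnitine carrier gene *Slc25a20* 43.1 and 46.0 CPM. Of 21 peroxisomal genes, *Acox2* of branched-chain and bile acid oxidation was lower (10.7 and 3.86 CPM) and none was higher. Peroxisome assembly had 1 of 18 lower, the regulators 1 of 9 higher, and glycolysis 1 of 9 higher, the phosphofructokinase gene *Pfkp* (6.44 and 25.2 CPM).

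In late cells few genes of these lists passed. None of 11 uptake and storage genes and none of 9 regulators did, while 2 of 21 mitochondrial, 3 of 20 peroxisomal and 1 of 18 assembly genes were lower in old and none higher. *Acox2* had 61.3 and 14.5 CPM in young and old, *Acad9*, an assembly factor of complex I, 92.7 and 42.9 CPM and the pyruvate kinase gene *Pkm* 20.6 and 2.24 CPM. *Plin2* had 125 and 185 CPM and *Cd36* 189.7 and 166 CPM. *Etfdh* had 82.7 and 80.0 CPM and *Slc25a20* 40.2 and 34.6 CPM, none of these 4 past 1.5-fold. In glycolysis 2 of 9 were higher and 1 lower.

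Along the tubule the members ran in both directions in each library. In late over early cells, 11 members were higher and 9 lower in young, against 7.88% and 38.6% of all genes, and 9 were higher and 11 lower in old, against 5.12% and 35.2%. The median log2 ratio of all genes was -0.35 in young and -0.30 in old and that of the members 0.42 and 0.12. Relative to the median gene 23 members were higher and 5 lower in young, and 17 were higher and 8 lower in old. At that centring 43.6% and 35.6% of all genes passed in either direction. More members thus lay on the late side once the shift of all genes was taken out. Since few Xist cells were late, the contrast was also taken within Y cells. There 15 members were higher and 5 lower in young (all genes 8.23% and 37%) and 10 higher and 7 lower in old (4.89% and 26.9%), with member medians of 0.56 and 0.39 and medians of all genes of -0.32 and -0.20.

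The dehydrogenase genes lay on the late side. *Acadm* had 447 CPM in early and 2129.5 in late young cells and 431 and 829.9 CPM in old ones, log2 ratios of 2.25 and 0.95. *Acadl* had 259 and 622 CPM in young and 347 and 532 CPM in old, and *Acads* 202 and 353 CPM and 224 and 384 CPM. For these 3 the late level was higher by more than 1.5-fold in both libraries, and *Acadvl*, *Etfa* and *Etfb* stayed within 1.5-fold.

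At the entry of the pathway the members were unequal. *Acsm3* had 32.9 and 858 CPM in early and late young cells and 52.2 and 438 CPM in old ones, log2 ratios of 4.71 and 3.07, and 4.68 and 2.58 within Y cells. *Acsl1* had 226 and 32.5 CPM and 249.97 and 23.6 CPM, log2 ratios of -2.79 and -3.40, and -2.76 and -2.57 within Y cells. The medium-chain gene *Acsm3* was thus high where the long-chain gene *Acsl1* was low. *Fabp3* was lower in late cells (261 and 38.6 CPM and 75.4 and 23.6 CPM), and so was *Cpt1a* (64.0 and 41.6 CPM and 82.0 and 47.2 CPM, log2 ratios of -0.62 and -0.80). *Cpt2* was higher by more than 1.5-fold in young (61.4 and 108 CPM) and by less in old (75.8 and 99.8 CPM).

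Of the genes for the later steps, *Acaa2* was lower in late cells, with 391 and 53.2 CPM in young and 313 and 40.0 CPM in old, log2 ratios of -2.88 and -2.97. *Ech1* was higher (0.94 and 0.59), and so was *Eci2* (1.24 and 0.66), while *Ehhadh* was higher in young (1.65) and within 1.5-fold in old (0.36). Within one pathway, then, the thiolase gene *Acaa2* and the dehydrogenase genes ran in opposite directions along the PT. *Cat* (0.18 and -0.14) and *Pex11a* (0.44 and 0.12) stayed within 1.5-fold.

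Of the regulators, *Ppargc1a* had 82.3 and 16.9 CPM in early and late young cells and 83.5 and 22.2 CPM in old ones, log2 ratios of -2.28 and -1.91. *Ppara* was lower in late cells too (61.5 and 35.0 CPM and 68.1 and 36.9 CPM). *Pdk4* had log2 ratios of 0.38 and -0.26 over all cells and of 1.27 and 0.67 within Y cells. Both the receptor and its coactivator were thus lower where *Acadm*, *Acadl* and *Acads* were higher.

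The ω-hydroxylase genes depended on which cells were taken. *Cyp4a10* had log2 ratios of late over early of 1.01 in young and -1.13 in old, but 2.54 and 1.56 within Y cells, where it had 16.2 and 94.4 CPM and 7.87 and 23.2 CPM. *Cyp4a14* had -1.01 and -5.32, but 1.87 and 0.35 within Y cells, the last from 7 late UMIs. *Hacl1* had -0.63 and -1.35, and -0.19 and 0.08 within Y cells. The sign of all 3 in old, and that of *Cyp4a14* in young, was the opposite among Y cells alone, a set that leaves out the Xist cells and those with neither or both kinds of UMI.

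**Figure D3:**
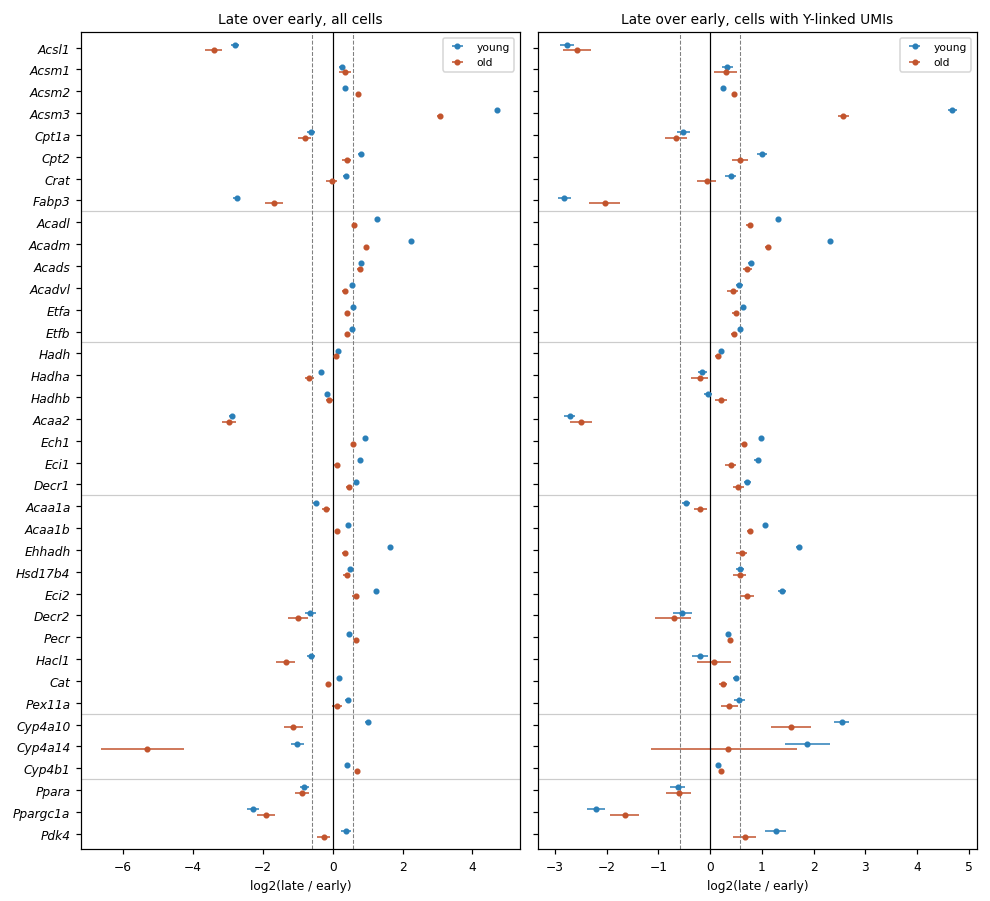
Log2 ratio of late over early PT cells for each member in both libraries, with exact 95% binomial intervals (counting error only), over all cells (left) and over cells with Y-linked UMIs (right). *Acsm3* and *Acadm* lie to the right and *Acsl1*, *Acaa2*, *Fabp3* and *Ppargc1a* to the left in both panels, while *Cyp4a10* and *Cyp4a14* shift to the right when Y cells alone are taken.

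The lists of other genes gave a like picture. Of the peroxisomal list 9 of 21 were higher and 1 lower in young late cells, and 9 of 21 higher and 2 lower in old. Of mitochondrial oxidation and ketone bodies 7 of 23 were higher and 3 lower in young and 6 of 22 higher and 2 lower in old. Of the regulators 1 of 9 was higher and 4 were lower in both libraries, a count of lower genes near the share of all genes given above. *Bdh1* had 3.70 and 192 CPM in early and late young cells and 20.03 and 138 CPM in old ones, and *Cd36* 14.5 and 189.7 CPM and 32.1 and 166 CPM. *Nudt19*, a peroxisomal coenzyme A hydrolase gene, had 153 and 774 CPM in old, and *Pkm* 1.72 and 20.6 CPM in young.

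Some genes of these lists differed little along the PT, while the uptake and storage list ran in both directions. *Etfdh* (0.19 and 0.14), *Slc25a20* (-0.10 and -0.41) and *Plin2* (0.17 and 0.06) stayed within 1.5-fold. Uptake and storage had 5 of 12 higher and 5 lower in young and 2 of 13 higher and 7 lower in old, assembly 3 of 18 and 2 of 18 higher, and glycolysis 2 of 9 and 1 of 8 higher.

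The members were also compared between Y and Xist cells of 1 class and library. In early cells 5 members were higher and 9 lower in Y cells in young, against 3.92% and 10.7% of all genes, and 6 were higher and 10 lower in old, against 5.55% and 25.6%. The median log2 ratio of all genes was -0.12 and -0.22, and that of the members -0.16 and 0.05. The cells of each kind come from a pool, so these are differences between sets of cells and not between replicated groups of mice.

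The ω-hydroxylase genes split in opposite directions. *Cyp4a14* had 2.33 CPM in Y and 130.4 in Xist early cells of the young library and 1.19 and 157 CPM in the old one, log2 ratios of -5.80 (-6.18 to -5.45) and -7.04 (-7.80 to -6.37). *Cyp4a10* had 16.2 and 149.9 CPM in young and 7.87 and 121 CPM in old, log2 ratios of -3.21 and -3.94. *Cyp4b1* had 1241 and 171 CPM in young and 2128 and 584 CPM in old, log2 ratios of 2.86 and 1.87. Of these neighbours on chromosome 4, *Cyp4a10* and *Cyp4a14* were low and *Cyp4b1* was high in Y cells of both libraries.

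Several peroxisomal members were lower in Y cells. *Hacl1* had 38.1 and 146 CPM in Y and Xist cells of the young library and 21.4 and 95.2 CPM in the old one, log2 ratios of -1.94 and -2.15. *Acaa1b* had 406 and 1114 CPM and 465 and 797 CPM, although it shared 34.6% of the 50-base words at its 3′ end with other genes, mostly *Acaa1a*, and *Cat* had 296 and 534 CPM and 294 and 473 CPM. *Pecr*, a peroxisomal enoyl-CoA reductase gene, ran against them, with 842 and 386 CPM and 1021 and 373 CPM, log2 ratios of 1.13 and 1.45.

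At the entry *Acsl1* was lower in Y cells, with 189 and 412 CPM in young and 157 and 553 CPM in old. *Acsm3* had 36.1 and 15.3 CPM and 76.4 and 5.68 CPM, log2 ratios of 1.24 and 3.75. *Acsm2* (0.70 and 0.69) and *Fabp3* (0.90 and 1.0) were also higher in Y cells of both libraries. *Cpt1a* (-0.33 and -0.39), *Pex11a* (-0.39 and -0.38) and *Cpt2* (-0.51 and 0.12) stayed within 1.5-fold. The 3 regulators were lower in Y cells, *Pdk4* at 12.2 and 64.2 CPM and 33.9 and 157 CPM, *Ppara* with log2 ratios of -0.64 and -0.80, and *Ppargc1a* with -0.38, within 1.5-fold, and -0.75.

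The middle class gave the same signs for *Cyp4a14* (-5.72 and -9.75, the latter from 11 UMIs in Y cells), *Acsm3* (3.1 and 2.93), *Cyp4a10* (-3.28 and -4.57), *Pdk4* (-2.30 and -2.75), *Hacl1* (-2.44 and -2.51), *Acsl1* (-2.86 and -3.57) and *Cyp4b1* (2.72 and 1.25). Immediate-early and heat shock genes, which respond to tissue handling, summed to 4255 CPM in Y and 6144 CPM in Xist early cells of the young library and to 3518 and 6405 CPM in the old one, and their part was not tested. Of the other pathway genes, *Pdk1*, a relative of *Pdk4*, had 3.01 and 12.0 CPM in Y and Xist cells of the young library and *Slc25a20* 39.1 and 60.7 CPM. *Cd36* had 17.5 and 3.06 CPM in young and 45.7 and 0.946 CPM in old, and in old *Bdh1* had 28.0 and 4.42 CPM and *Slc27a1*, a fatty acid transport gene, 5.35 and 24.8 CPM. *Etfdh* (-0.32 and -0.18) and *Plin2* (0.01 and 0.04) did not pass 1.5-fold.

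The injury genes were *Havcr1*, *Krt20*, *Sox9*, *Vcam1*, *Lcn2* and *Cdh6*. PT cells with at least 3 UMIs and 100 CPM of them, called marked, numbered 65 in young and 138 in old. They were set against 4930 and 2680 PT cells with no such UMI. The 668 young and 360 old PT cells with 1 or 2 such UMIs entered neither set. The marked cells were not alike in the libraries. In old 57.2% had a *Vcam1* UMI, and *Spp1*, a gene read as a check, had 4803 CPM in marked and 579 CPM in unmarked cells. In young 15.4% had a *Vcam1* and 83.1% a *Cdh6* UMI, *Spp1* had 1619 and 461 CPM, and the late genes *Aadat* and *Serpina1f* had 4099 and 315 CPM in the marked cells. *Cp*, another check, had 23.5 and 0.377 CPM in young and 114 and 0.910 CPM in old. The check *Cryab* had 250 and 6.12 CPM in young and 33.6 and 1.24 CPM in old. *Clu*, *Cd44* and *Anxa2*, also read as checks of injury, had at most 15.2 CPM in the marked cells of either library. In old they had 15.2 and 6.12, 3.23 and 0.659, and 1.61 and 1.18 CPM in marked and unmarked cells. In young the values were 7.46 and 7.55, 2.29 and 0.643, and 1.72 and 0.987 CPM. The checks were thus uneven, and the cells are named by the gate and not as an injury state. Xist cells made up 47.7% of marked and 9.21% of unmarked cells in young and 34.8% and 12.2% in old.

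In old, 3 members were higher and 3 lower in marked than in unmarked cells, against 18.8% and 5.21% of all genes. The median log2 ratio of all genes was 0.17 and that of the members -0.22, and relative to the median gene 3 members were higher and 11 lower, where 21.3% of all genes passed in either direction. The members took 1.002% of UMIs in marked and 1.29% in unmarked cells. Marked cells entered at a lower limit of PT gate genes than unmarked cells. These genes had 16879 CPM in marked and 24387 CPM in unmarked old cells. The part of this difference in the member share and counts was not tested. *Pdk4* had 127 CPM (115 to 140.4) in marked and 49.0 CPM (47.1 to 50.9) in unmarked cells, a log2 ratio of 1.38 (1.22 to 1.53), and 1.34 against unmarked early cells alone. *Pecr* had 590.3 and 1064 CPM (-0.85), and -0.57 against early cells. *Acsm3* had 72.7 and 207 CPM (-1.51), but 0.32 against early cells.

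The values of the ω-hydroxylase genes in marked old cells differed between kinds of cells. *Cyp4a14* had 86.2 and 30.7 CPM in marked and unmarked cells, a log2 ratio of 1.49, but -0.11 among Xist cells. *Cyp4a10* had 79.4 and 35.8 CPM, a log2 ratio of 1.15, but -0.48 among Y cells, and *Cyp4b1* had 1358 and 2041 CPM (-0.59). Among Y cells 1 member was higher and 13 were lower in marked cells, where 27.3% of all genes passed in either direction, and among Xist cells none was higher and 2 were lower, where 6.59% did. The counts of members and of all genes were thus both smaller among Xist cells. *Cpt1a* (0.24), *Cpt2* (-0.46), *Ppara* (0.31), *Ppargc1a* (0.53), *Cat* (-0.12) and *Pex11a* (-0.09) stayed within 1.5-fold over all old cells.

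In young, 8 members were higher and 5 lower in marked cells, against 12.1% and 13.7% of all genes, with medians of 0.23 over the members and 0.03 over all genes. *Acadm* had 2798 and 743 CPM in marked and unmarked cells (1.91), *Ehhadh* 454 and 187 CPM (1.28) and *Hacl1* 142 and 49.6 CPM (1.52). *Cyp4a14* had 121 and 24.1 CPM (2.33), *Cyp4a10* 218 and 60.8 CPM (1.84) and *Cyp4b1* 208 and 1432 CPM (-2.79). *Acadm* and *Ehhadh* were also higher in late than in early young cells, and *Cyp4a14*, *Cyp4a10* and *Hacl1* higher and *Cyp4b1* lower in Xist than in Y cells, and these comparisons share cells. *Pdk4* had 37.3 and 28.4 CPM, a log2 ratio of 0.39 (0.01 to 0.75), against 1.38 in old, a difference that was not tested.

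The level of PT gate genes was lower in marked cells of the young library too, at 17648 CPM against 25363 CPM in unmarked cells. The part of this in the young member values was not tested. Handling and depth differed between marked and unmarked cells as well. Immediate-early and heat shock genes had 4721 CPM in marked and 2693 CPM in unmarked old cells and 3150.1 and 3434 CPM in young, and their part in the member values was not tested. The median depth was 21004 and 16126 UMIs in old and 24048 and 15436 UMIs in young. Of the marked cells 26 in young and 38 in old had no more than the minimum of 3 injury UMIs.

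Of the pathway lists in marked old cells 1 of 23 mitochondrial genes was higher and 6 were lower, and 6 of 21 peroxisomal genes were lower and none higher. *Plin2* had 384 and 177 CPM in marked and unmarked old cells, *Pfkp* 71.0 and 28.6 CPM, *Pkm* 4.84 and 1.84 CPM and *Fabp5*, another fatty acid carrier gene, 5.81 and 14.9 CPM. *Etfdh* (-0.16), *Slc25a20* (-0.12) and *Cd36* (-0.07) did not pass. In young 4 of 23 mitochondrial genes were higher and none lower, and 6 of 21 peroxisomal genes were higher and 5 lower. *Acox2* had 147 and 18.0 CPM in marked and unmarked young cells, *Bdh1* 266 and 34.4 CPM and *Pkm* 59.1 and 3.11 CPM.

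**Figure D4:**
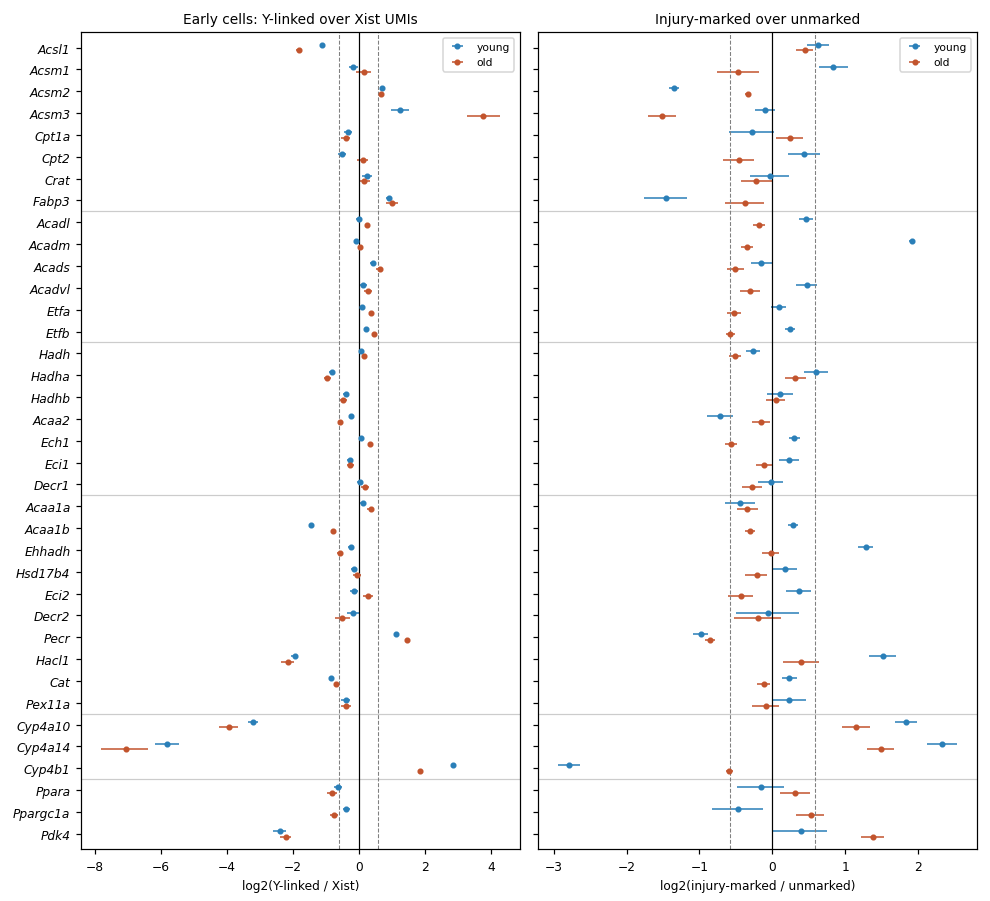
Log2 ratios of the members in both libraries with exact 95% binomial intervals (counting error only), for Y over Xist early cells (left) and for injury-marked over unmarked PT cells (right). Dashed lines mark 1.5-fold. *Cyp4a14*, *Cyp4a10*, *Hacl1* and *Pdk4* lie far to the left and *Cyp4b1* to the right in the left panel, and the libraries lie apart for *Acadm*, *Cyp4b1* and *Acsm3* in the right panel.

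Beyond the PT, the few loop of Henle-like cells and 56 distal tubule-like cells of the old library held another set of members. *Fabp3* had 633 CPM in young loop, 231 CPM in old loop and 622 CPM in old distal cells. *Ppargc1a* had 289, 278 and 223 CPM and *Cpt1a* 114, 187 and 206 CPM in the same order. These 3 genes were each higher there than in early PT cells of the same library, where *Fabp3* for one had 261 and 75.4 CPM. *Acsm2* (78.4, 20.3 and 14.5 CPM), *Acaa1b* (18.9, 17.1 and 7.25 CPM) and *Pecr* (29.7, 9.60 and 16.7 CPM) were far below their PT levels.

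In leukocytes, UMIs of a member can come from tubule RNA free in the suspension. Leukocyte classes held only cells with less than 4000 CPM of the PT gate genes, which caps that background. The leukocyte classes carried genes that their gates did not use, such as *Lat* in T-like cells (400.1 CPM in young and 568 in old), *Ebf1* in B-like cells (1982 and 1173 CPM) and *Ms4a7* in macrophage-like cells (329.9 and 459 CPM). For 14 tubule genes the level in lymphocyte-like cells (T, B, NK and group 2 innate lymphoid cells, 2268 young and 4462 old) was taken as a percentage of the PT level. The median was 4.36% in young, with a range of 3.54% to 12.2%, and 1.95% in old, with a range of 1.36% to 5.89%. Of the 37 members, 23 in young and 24 in old lay above 2 times that median, where 87.1% and 90.4% of all genes did. At 2 times the highest of the 14 genes, 5 members were above in young and 18 in old. That highest percentage was 66.2% in young B-like cells, against 5.65% in T-like and 5.79% in group 2 innate lymphoid-like cells. With the limit taken within each class, 19 members were above in young and 22 in old T-like cells. In group 2 innate lymphoid-like cells 21 were above in both libraries. In B-like cells 0 were above in both, and in NK-like cells 0 in young and 8 in old. The share of all genes above that stricter limit was not taken, so these counts have no background to be read against.

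*Hadha*, whose protein carries out the last steps of the cycle for long chains with that of *Hadhb*, had 93.6 CPM (88.2 to 99.2) in young and 77.2 CPM (73.9 to 80.7) in old lymphocytes, which is 74.6% and 67.9% of its PT level. *Hadhb* had 71.1 and 81.5 CPM, or 47.4% and 46.6%, with 43.2% of its 3′ words shared with another gene. *Cpt1a* stood at 37.1% and 23.5%, *Eci2* at 31.2% and 28.0% and *Acadvl* at 32.2% and 16.6%. Of all members the trifunctional protein genes came nearest to their PT level in lymphocytes. *Acadl* had 167 CPM in young and 146 in old B-like cells, against 54.9 and 73.3 CPM in T-like cells.

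The members at or under the limit in both libraries were *Acsm1*, *Acsm2*, *Acsm3*, *Fabp3*, *Acaa1b*, *Ehhadh*, *Pecr*, *Cyp4a10*, *Cyp4a14*, *Cyp4b1*, *Ppara*, *Ppargc1a* and *Pdk4*, 13 in all, and *Pex11a* was so in young. *Ppara* had 2.29 CPM in young and 1.498 in old lymphocytes, *Ppargc1a* 1.72 and 1.46 CPM and *Pdk4* 1.15 and 1.46 CPM. These 3 regulators stood between 2.49% and 4.38% of their PT levels, which is read as background and not as expression.

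In T-like cells (463 young, 3812 old) 10 of the 28 members at the count filter were lower in old and none higher, against 7.03% of all genes lower. The median log2 ratio was -0.29 over the members and 0.05 over all genes. The background was lower in the same cells, 4.25% of the tubule level in young and 1.95% in old. *Acsm3* (21.7 and 5.43 CPM), *Acaa1b* (42.6 and 16.1 CPM) and *Acsm2* (99.9 and 43.4 CPM) had the largest log2 ratios and were all at that background. *Ehhadh* had 16.4 and 7.74 CPM. Members above the T-like background in both libraries were lower too, namely *Hacl1* (9.83 and 4.86 CPM, -1.01), *Cat* (57.3 and 35.7 CPM, -0.68), *Acadvl* (42.2 and 27.4 CPM, -0.62) and *Hadh* (62.6 and 41.7 CPM, -0.59). The 2 others were *Acadm* (-0.85), above it in old, and *Pecr* (-0.77), at it in both. All 10 values include tubule RNA, and the part of the lower old background in them was not tested. Of 23 members at the filter among Y cells 5 were lower in old and none higher, where 15.2% of all genes passed in either direction, and of 23 among Xist cells 6 were lower and 2 higher, where 31.2% did. The young T-like cells were 53.1% Y and 16.0% Xist cells, and the old ones 32.1% and 43.3%. *Hadha* had 92.1 and 76.0 CPM, *Hadhb* 72.9 and 79.5 CPM and *Cpt1a* 15.6 and 17.1 CPM, within 1.5-fold.

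The other lymphocytes gave the same direction. In group 2 innate lymphoid-like cells (1398 young, 313 old) 8 of 26 members were lower in old and none higher, against 7.83% of all genes lower, in B-like cells 6 of 12, against 12.6%, and in NK-like cells 2 of 9, against 6.88%. The background was 4.25% and 1.92% in the first of these, 5.58% and 1.52% in B-like and 3.59% and 1.54% in NK-like cells. *Acsm2* was among the lower members in all 3, with 100.4 and 47.3 CPM, 131 and 36.1 CPM and 98.4 and 35.0 CPM. *Acsm3* had 166 young and 3 old UMIs in innate lymphoid-like cells, a log2 ratio of -3.59 (-5.88 to -2.02), and *Pecr* (40.9 and 12.7 CPM), *Acaa1b* (36.4 and 15.0 CPM) and *Ehhadh* (12.6 and 5.77 CPM) followed. All of these were at or under the limit in lymphocytes, while 3 members above it in both libraries were lower as well, *Acadm* (78.9 and 41.0 CPM, -0.94), *Cat* (61.9 and 34.0 CPM, -0.86) and *Crat* (15.7 and 9.81 CPM, -0.68). These values too include tubule RNA, and the part of the lower old background in them was not tested. In B-like cells *Cyp4b1* had 87.5 and 38.1 CPM, *Cat* 86.8 and 41.1 CPM, *Acadm* 89.8 and 43.1 CPM and *Hadh* 69.9 and 37.1 CPM, and in NK-like cells *Etfa* had 102 and 65.3 CPM. *Hadha*, above the limit in both libraries, stayed within 1.5-fold, with 91.3 and 82.5 CPM in innate lymphoid-like and 111 and 79.2 CPM in B-like cells.

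In macrophage-like cells (87 young, 78 old) 22 members in young and 25 in old lay above 2 times the median background, where 80.4% and 87.4% of all genes did. Above the highest of the 14 tubule genes, which stood at 28.7% and 61.6%, lay 6 and 2 members, a limit at which the share of all genes was not taken. *Acsl1* had 116 CPM (90.1 to 148) in young and 62.5 CPM (50.8 to 76.0) in old macrophages, and 181 CPM (138 to 232) and 97.1 CPM (70.8 to 130.0) in neutrophil-like cells, against 146 and 159.6 CPM over all PT cells. Its interval in young neutrophils included the PT level, and that in old neutrophils lay below it.

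Between old and young, 5 of the 12 members at the count filter passed 1.5-fold in macrophages, where 33.7% of all genes did, and 4 of 20 in monocyte-like cells, where 18.2% did. *Acaa1a* had 54.7 and 114 CPM in young and old macrophages and 58.1 and 97.5 CPM in monocytes, log2 ratios of 1.06 (0.51 to 1.66) and 0.75 (0.38 to 1.13). *Acadl* had 31.8 and 59.4 CPM, from 18 and 95 UMIs. *Acsm2* (-1.33) and *Acadm* (-1.11) were lower in old macrophages, where the background was 4.55% in young and 1.37% in old. The median depth of the macrophages was 4986 UMIs in young and 15913 UMIs in old and their immediate-early and heat shock genes had 23805 and 6489 CPM, whose part was not tested. With a stricter gate 2 of 6 members at the filter passed in macrophages, where 43.7% of all genes did. In monocytes *Acsm2* (68.8 and 18.9 CPM), *Hadh* (52.0 and 28.3 CPM) and *Acadm* (79.5 and 48.6 CPM) were lower in old, where the background was 2.81% and 1.097%. *Acsm2* was lower in old neutrophils too (243 and 71.2 CPM).

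The CG content of the promoter window went along with the lymphocyte level. Of the members with a window, 19 were above the limit in both libraries and held 9 to 34 CG dinucleotides in 300 bases, with a median of 17. The 11 members that were above it in neither held 2 to 30, with a median of 7, as over all 32851 windows. In the printed stretches *Hadhb* and *Acadl* show CG-rich and *Acaa1b* and *Acsm1* CG-poor sequence. *Ppara* (30), *Fabp3* (22) and *Pecr* (21) were the members at the background with more CG dinucleotides than the median of the first group. The groups were formed from the levels, so no test was made.

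A nuclear receptor motif did not set the windows of the members apart. The 6-base motif AGGTCA, searched on both strands, was in the windows of 5 of 31 members (*Acadm*, *Acadvl*, *Acsm1*, *Cat* and *Cpt1a*) and in 16.3% of all windows. Its looser form AGGNCA, repeated after 1 base as in the PPARα element known as DR1, was in no member's window and in 0.381% of all windows. That no match was found says only that these letters are not in the 300 bases searched.

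**Figure D5:**
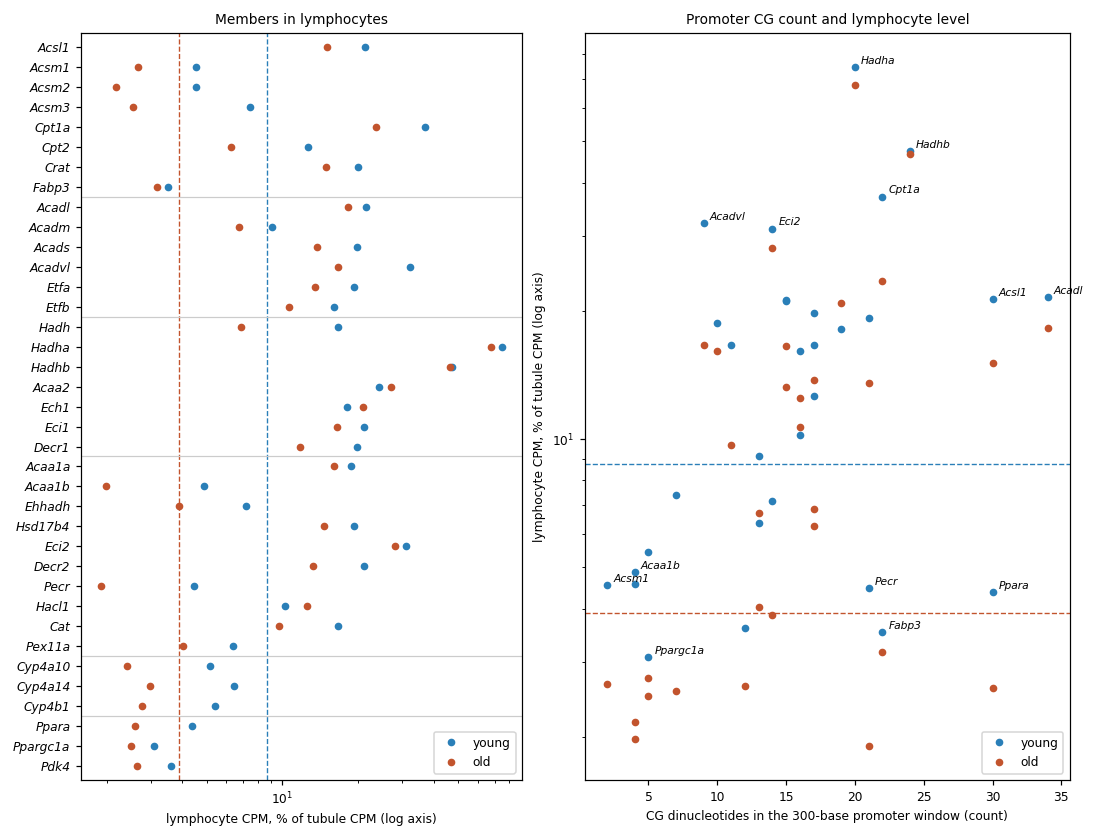
Level of each member in lymphocyte-like cells as a percentage of its PT level in both libraries (left, log axis), and the same percentage against the number of CG dinucleotides in the 300-base promoter window for the 31 members with one (right, log axis). Dashed lines mark 2 times the median of the 14 tubule genes, at 8.72% in young and 3.90% in old. *Hadha* and *Hadhb* have the highest percentages in both panels, and the members with the fewest CG dinucleotides lie at or under the lines.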

How the data were processed

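Both libraries were droplet-based 3′ single-cell RNA libraries of pooled kidney cells. The deposited values are raw UMI counts, which the authors made with Cell Ranger 3.1.0 on mm10, per the file headers and notes, with no normalization or mitochondrial filter. The members and the gene lists were chosen with earlier results of these data known, and the gating numbers were set after marker levels had been seen. Cells were gated per barcode with no clustering. PT cells had at least 8000 CPM of 8 PT genes, and segments were cut at log2 late over early gate genes of -2 and 1. Injury-marked cells had at least 3 UMIs and 100 CPM of injury genes and 4000 CPM of PT genes. Each other class had UMIs of at least 3 genes of its list (4 for macrophages) and less than 4000 CPM of PT genes, which caps the tubule RNA in it. Scrublet doublets (328 young, 246 old) were kept and left out as an alternative.

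Summed UMIs of a class were scaled to CPM with exact Poisson intervals, shares had exact Clopper-Pearson intervals, and log2 ratios had exact binomial 95% intervals. No test was made, since each age has 1 library. The matrices' genes were placed with GENCODE M21, and promoter sequences are from RefSeq (GRCm38.p6). For Acsm2 and Acsl1, which have more than 1 window, the one with the most CG dinucleotides was taken. The text names all 37 members, with values for those past 1.5-fold in early or late PT cells, the 5 largest log2 ratios of other comparisons and 7 rate-setting genes, and from pathway lists 6 set genes and the 3 largest ratios, save a few genes that are not reported here but are counted in the lists. Fabp3, Etfb, Hadhb, Acaa1a, Acaa1b and Hacl1 each shared over 20% of 50-base words in the last 500 bases of their transcripts with another gene, and their counts are less certain. Scripts were tested on simulated counts. Software was SciPy 1.17.1, Matplotlib 3.10.9, Scanpy 1.11.5, pandas 2.3.3 and NumPy 2.4.6 under Python 3.11.15.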

Additional observations from a re-analysis of the deposited data

Results flagged for a closer look

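*Acsm3* differed between Y and Xist cells in its ratio of old over young. In early PT cells the log2 ratio was 1.08 in Y and -1.43 in Xist cells, a gap of 2.51. *Cyp4a10* differed between the libraries in its ratio of late over early cells, 1.01 in young and -1.13 in old, a gap of 2.14, and was above 0 in both within Y cells. Neither difference was tested, since each side is 1 set of cells of 1 library. Barcodes with over 20% mitochondrial UMIs, which entered no comparison, numbered 2576 in young and 1111 in old, and members took 0.670% and 0.688% of their UMIs, against 1.09% and 0.813% in the kept barcodes.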

How the results depend on the processing

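Leaving out doublets, taking cells of at least 500 genes, a mitochondrial limit of 10% or none, totals without abundant genes, or averaging CPM over cells moved none of the counts and medians of whole comparisons. Under all settings, of the counts and medians of whole comparisons 188 were the same and 34 moved. Of the values of single members 1342 were the same, 83 fell under 1.5-fold, 12 changed sign and 36 moved, the last all shares of cells at other depths. The cause was not tested.

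Counts of members past the size depended on the filter and the size. With a minimum of 20 UMIs they were 16 of 37 in T-like cells, 9 of 26 in monocytes and 11 of 25 in macrophages (all genes 29.2%, 26.6% and 40.5%), and with no filter 16 of 37, 18 of 37 and 18 of 34 (49.1%, 47.3% and 57.4%). At 2-fold they were 2 in early, 1 in middle and 4 in late cells for old over young (all genes 3.77%, 4.36% and 4.56%). In T-like cells they were 5 of 28, in monocytes 1 of 20 and in macrophages 3 of 12 (8.32%, 5.97% and 14%). For late over early they were 11 in young and 8 in old (26.5% and 20%). For young injury-marked cells the count was 8 (12.6%), and for Y over Xist 9 in young and 9 in old (4.62% and 9.87%). A stricter gate gave 2 of 6 in macrophages, and centring on the median gene 14 in old injury-marked cells (all genes 43.7% and 21.3%). Above the highest tubule gene lay 6 members in young and 2 in old macrophages. Above 2 times that gene lay 5 in young lymphocytes and 1 and 0 in young and old macrophages. The share of all genes was not taken at these limits.

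The kind of cell mattered too. With only Xist cells the median log2 ratio of the members in early cells was -0.072. The counts were 0 of 2 tested in monocytes, 7 of 37 in young and 2 of 37 in old injury-marked cells (all genes 25.7%, 14.6% and 6.59%). With only Y cells the late median was -0.10. The counts were 5 of 23 in T-like cells, 1 of 15 in monocytes and 1 of 3 in macrophages (all genes 15.2%, 18% and 36%). In old injury-marked cells 14 of 36 passed (27.3%). Against unmarked early cells alone, an alternative chosen after seeing the data, 23 of 37 members passed in young injury-marked cells, where 27.7% of all genes did.

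Signs that changed were these log2 ratios. For *Acsl1* in young injury-marked cells they were -0.29 with the stricter gate, -0.023 with only Xist cells and -0.0083 against unmarked early cells. With only Xist cells *Acsm3* was at -1.43 for old over young in early cells and *Cyp4a14* at -0.11 in old injury-marked cells. With only Y cells *Cyp4a14* was at -0.97 for old over young in early cells and at 1.87 in young and 0.35 in old for late over early. With only Y cells *Hacl1* was at 0.077 and *Cyp4a10* at 1.56 for late over early in old, and *Cyp4a10* at -0.48 in old injury-marked cells. Against unmarked early cells *Acsm3* was at 0.32 in old injury-marked cells.

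No paired analysis was possible because each age has 1 library, and leaving out a replicate was not possible either. Too few cells remained to take only Xist cells for late cells or macrophages, or only Y cells for young injury-marked cells. Depth limits members in macrophages, of which 12 reached 100 UMIs, and *Cyp4a14* in old late cells, with 7 UMIs.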
